A study of Mus musculus with 4 samples.

Results

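The quantity described here is the difference between the expression ratios of stable and transient Dlx3 transfectants, here called their responses, in mouse embryonic fibroblasts (MEFs). For each probe, the log2 ratio of Dlx3-transfected over control cells was averaged over the 2 arrays of stable transfectants, and the mean of the 2 arrays of transient transfectants was subtracted. A positive difference therefore means a higher ratio in stable transfectants, and it is not the response of either group alone. All 4 arrays of the study entered the contrast. Of 16463 transcript probes on the array, 14610 were bright enough to be tested, and blank spots and randomized negative control spots were left out.

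Dlx3 is a homeobox transcription factor of the distal-less family, whose members bind DNA through a homeodomain that recognises a short core sequence rich in A and T. It is known for its roles in placenta, epidermis, hair, teeth and bone. Stable transfection keeps cells that have retained a plasmid, so that they live with its product over many divisions, whereas transient transfection shows cells soon after the plasmid has entered.

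The stable arrays set MEFs transfected with a plasmid expressing Dlx3 (Cy5 dye) against cells that received an empty plasmid (Cy3). The transient arrays set Dlx3-expressing cells, transfected for 24 h (Cy5), against control MEFs (Cy3). The stable control thus carried a plasmid, whereas for the transient control the labels name no plasmid, so the kind of Dlx3 expression and the kind of control changed together and cannot be told apart. By its title, one array in each group is a biological repeat of the other. Whether a stable line was 1 clone or a pool, the promoter of the plasmid, the selection agent and the strain and age of the embryos are not given in the sources used here.

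Promoter sequences are shown for the genes with the largest called difference in each direction among those called genes whose ratios lay more than 0.3 (log2) on opposite sides of 0 in the groups on every array, and for which a promoter was held: Spp1, higher in stable transfectants, and Klf2, lower. Each is the 250 bases before the RefSeq transcription start (GRCm38.p6), 5′ to 3′ along the gene. Spp1 lies at chr5:104434861-104435110 on the plus strand (the first of 2 listed starts), and Klf2 at chr8:72318812-72319061 on the plus strand. Capitals mark matches, on either strand, to TAATT, to the Runx factor core ACCACA, or to a loose motif of MEF2 factors. TAATT is a longer form of the homeodomain core TAAT, which was not marked on its own. The loose motif is CTA and TAG around any 4 bases, not only A and T.
Spp1: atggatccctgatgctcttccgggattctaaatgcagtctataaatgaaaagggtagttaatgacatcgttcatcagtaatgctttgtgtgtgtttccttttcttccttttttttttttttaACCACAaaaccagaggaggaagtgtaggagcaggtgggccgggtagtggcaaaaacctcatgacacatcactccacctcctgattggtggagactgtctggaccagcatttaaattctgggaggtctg
Klf2: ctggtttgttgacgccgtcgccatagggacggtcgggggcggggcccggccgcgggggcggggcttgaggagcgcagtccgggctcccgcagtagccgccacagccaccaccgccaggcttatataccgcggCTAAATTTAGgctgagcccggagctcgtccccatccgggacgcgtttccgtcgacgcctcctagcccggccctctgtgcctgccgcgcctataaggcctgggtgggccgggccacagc

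Neither window held TAATT, but the shorter TAAT occurs in the Spp1 window. The Spp1 window held 1 ACCACA, which began 128 bases before the start, and the Klf2 window held 1 loose MEF2 motif, which began 118 bases before it. Among promoters of the same length for 27025 genes, 25.4% held TAATT, 14.2% ACCACA and 3.23% the loose MEF2 motif. Of 26 called gene symbols, 17 had a promoter in the table, and 3, 4 and 3 of these held the respective motif. These matches describe the letters only, and no test was made of them.

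The probe for Dlx3, the transfected gene, showed no clear rise on these arrays. It had log2 ratios of 0.06 and 0.23 in stable and 0.14 and 0.56 in transient transfectants, and on 0 of 4 arrays was its spot brighter than the 95th percentile of randomized spots. Whether the transcript made from the plasmid holds the probed stretch is not given in the sources used here, so the names of the cells below are those of the labels.

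Median foreground intensities ranged from 450 to 855 across channels, with 86.8 and 87.1% of transcript spots above local background in the stable group, against 77.2 and 80.7% in the transient one. As a check of the labelled cell type, 5 of 7 fibroblast markers on the array exceeded the 95th percentile of the randomized spots in the Dlx3 channel of every array. That held for 1 of 6 macrophage and blood markers, 1 of 7 endothelial and 0 of 8 epithelial markers, and for 0 or 1 of 7 embryonic stem cell markers. Across tested probes, the log2 ratios of the 2 stable arrays correlated with r = 0.637 and those of the 2 transient arrays with r = 0.636, against 0.332 to 0.376 between a stable and a transient array. These correlations describe probes that share slides and dyes, and probes are not independent replicates.

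The stable and transient responses differed for a small set of genes. Among called probes, the differences were largest for Spp1, Msln, Tcim and Enpp2 on the higher side and for Ndrg4 and Ogn on the lower side. In all, 35 probes (0.24% of those tested) were called at a limma adjusted p under 0.05, of which 20 were higher (0.137%) and 15 lower (0.103%). Before adjustment, 2852 probes (19.5%) had p under 0.05, as did 18.3% of 814 blank spots, which carry no target, and 28.3% of the 127 blanks bright enough to pass the same filter. The 35 differences ranged in size from 0.91 to 3.58 (log2), against a median size of 0.16 over all tested probes, and 26 of the probes carried a gene symbol.

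In 22 of the 35 the 2 stable ratios lay on one side of 0 and both transient ratios on the other, which was so for 14.6% of tested probes. Stable ratios were positive and transient ratios negative in 13, and the reverse held in 9. In 10 others all 4 arrays had the same sign, and the remaining 3 had mixed signs. The 22 include Hk2 and Sult1e1, with neither channel above background in stable and in transient transfectants respectively. They also include ratios close to 0, such as -0.007 for Enpp2 on the second transient array. The mean response was the larger one in stable transfectants for 29 of the 35, and for 65.9% of all tested probes. The contrast itself selected these probes, so the counts describe them and support no further statement.

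**Figure D1:**
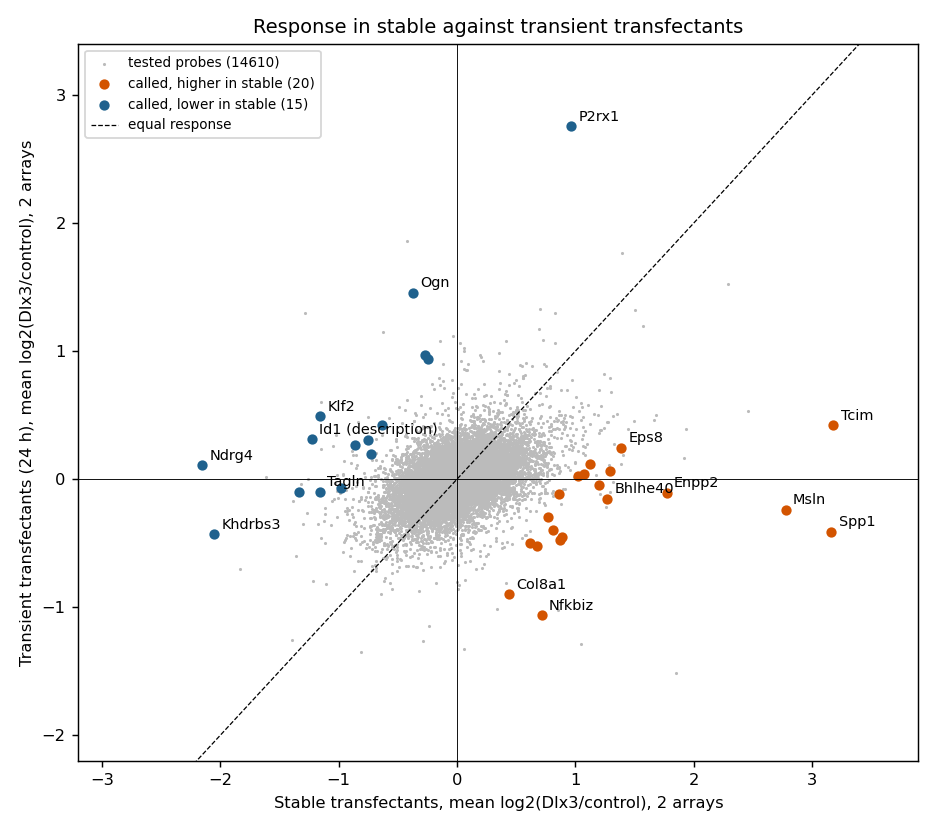
Mean log2 ratio (Dlx3 over control) of the 2 stable arrays on the x axis against that of the 2 transient arrays on the y axis, 1 point per tested probe. The dashed line marks equal responses. The 20 called higher probes (orange) lie to its right, mostly near or below 0 in transient transfectants, and the 15 called lower probes (blue) lie to its left, with P2rx1 positive in both groups.

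Among secreted and matrix proteins, Spp1, which encodes osteopontin, a secreted phosphoprotein of bone and of activated cells, had log2 ratios of 3.41 and 2.92 in stable cells against -0.47 and -0.35 in transient ones. The groups lay far apart and on opposite sides of 0, with a difference of 3.58 (95% confidence interval 3.14 to 4.01, 11.9-fold, adjusted p = 0.0102). On bulk RNA such as this, fewer expressing cells and less RNA per cell cannot be told apart. Enpp2, which encodes autotaxin, the secreted enzyme that makes lysophosphatidic acid, read 1.85 and 1.70 in stable and -0.21 and -0.01 in transient transfectants. Its ratio was raised on both stable arrays and close to 0 or below on both transient arrays, a difference of 1.88 (1.58 to 2.18, adjusted p = 0.0194).

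Col8a1, a short-chain collagen, read 0.42 and 0.46 in stable cells against -0.91 and -0.89 in transient ones. Here the larger response was the negative one in transient transfectants (difference 1.34, adjusted p = 0.0219). Pdgfc, a ligand of platelet-derived growth factor receptors, read 0.77 and 0.85 against -0.48 and -0.31, and so was positive on both stable and negative on both transient arrays (difference 1.20, adjusted p = 0.0303). Fgf7, a fibroblast-made growth factor for epithelial cells, differed by 1.20 (adjusted p = 0.0373), and on 1 of the 2 stable arrays its control channel did not exceed background. Msln, a cell-surface glycoprotein of mesothelium, read 3.15 and 2.41 against -0.33 and -0.14. Its difference of 3.02 (adjusted p = 0.0219) was the second largest among called probes, and its Dlx3 channel was above background on only 1 of the 2 transient arrays.

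Ogn, a small leucine-rich proteoglycan of the matrix also called osteoglycin or mimecan, was lower in the stable group. It read -0.65 and -0.09 in stable cells against 1.35 and 1.57 in transient ones. The groups did not overlap, and the transient response was the larger one (difference -1.83, 95% confidence interval -2.32 to -1.34, adjusted p = 0.0417). Of 8 tested members of that family, Ogn alone was called. Aspn (asporin), differed by -2.28 without a call (adjusted p = 0.0800), and Dcn (decorin) by 0.87 in the other direction (adjusted p = 0.0595). These 2 genes were chosen after their values were seen, as were the uncalled Id3, Acta2, Scara5, Cthrc1, Bnip3, Egln3, chemokines, Ptgs2 and glycolysis genes below.

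Several transcriptional and signalling regulators were called. Nfkbiz, an inducible nuclear regulator of NF-kB target genes, read 0.53 and 0.91 in stable cells against -1.14 and -0.98 in transient ones. Its sign was opposite in the groups, with sizes of the same order, and the difference was 1.78 (1.40 to 2.16, adjusted p = 0.0265). Cebpd, a transcription factor of acute-phase and adipocyte programmes, read 0.93 and 0.84 against -0.47 and -0.44 (difference 1.34, adjusted p = 0.0219). Bhlhe40, a repressor known from the circadian clock and hypoxia, read 1.28 and 1.26 against -0.20 and -0.11 (difference 1.42, adjusted p = 0.0219). Both were positive on each stable array and negative on each transient array.

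Tcim, also known as TC1, a small regulator of Wnt signalling, read 3.55 and 2.82 in stable and 0.43 and 0.42 in transient transfectants. All 4 ratios were positive, and the stable ones exceeded the transient ones by 2.76 (2.20 to 3.32, adjusted p = 0.0226). Errfi1, a feedback inhibitor of the epidermal growth factor receptor, differed by 1.35 (adjusted p = 0.0226), but its Dlx3 channel was above background on neither transient array. Eps8, a substrate of that receptor that acts on actin, differed by 1.14 (adjusted p = 0.0271), with each channel above background on 1 array of each group.

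On the lower side, Klf2, a zinc-finger factor known from endothelium and lymphocytes, whose promoter is shown above, read -1.17 and -1.14 in stable cells against 0.40 and 0.58 in transient ones. The groups lay on opposite sides of 0 (difference -1.65, 95% confidence interval -1.93 to -1.37, adjusted p = 0.0204). A probe described in the files as inhibitor of DNA binding 1, with no symbol through the reference table, read -1.04 and -1.41 against 0.27 and 0.35 (difference -1.54, adjusted p = 0.0303). Id2, of the same family of helix-loop-helix inhibitors that bone morphogenetic proteins (BMPs) are known to induce, read -0.64 and -0.86 against 0.34 and 0.28 (difference -1.06, adjusted p = 0.0469). Both were negative in stable and positive in transient transfectants on every array. Id3 read -1.22 and -0.46 against 0.42 and 0.48, and its difference of -1.29 was not called (adjusted p = 0.113). Khdrbs3, an RNA-binding splicing regulator, read -1.82 and -2.28 against -0.48 and -0.37, negative throughout and further from 0 in stable transfectants (difference -1.62, adjusted p = 0.0359). The spots of Klf2, Id2 and Khdrbs3 were above local background in both channels, but exceeded the 95th percentile of randomized spots on 0 of 4 arrays.

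Among cytoskeletal and membrane proteins, Ndrg4, a cytoplasmic protein best known from brain and heart, read -2.03 and -2.27 in stable cells against -0.01 and 0.23 in transient ones. Both stable ratios were far below 0 and both transient ratios near it (difference -2.26, 95% confidence interval -2.61 to -1.92, adjusted p = 0.0194). Tagln, the actin-binding protein transgelin of smooth muscle and contractile fibroblasts, read -1.18 and -1.14 against -0.08 and -0.12. All 4 ratios were negative, and those of the stable arrays were lower by a difference of -1.06 (adjusted p = 0.0303). A probe described as lamin A, a protein of the nuclear lamina, had the smallest called difference, -0.91 (adjusted p = 0.0460). Probes described as Eph receptor A3 and phospholipase C epsilon 1 differed by -1.18 and -1.23 (adjusted p = 0.0296 and 0.0303), and the second had its Dlx3 channel above background on 1 of 2 stable arrays. Neither of these probes exceeded the 95th percentile of randomized spots on any array.

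P2rx1, an ATP-gated cation channel, had positive ratios on all 4 arrays, at 1.06 and 0.88 in stable and 2.60 and 2.91 in transient transfectants. In stable transfectants neither channel was above background, so the stable ratio has no measured size there. In transient transfectants the Dlx3 channel was 6.47-fold brighter than the control channel by a rough limit, as the control was not above background. That limit sets the mean of the bright channel against a value for the dim one on each array. The value was the dim probe's signal or, where higher, the dimmest signal that counted as above background. It is no strict lower limit, since a signal not above background may be used as it stands, and it is open to dye bias. The P2rx1 difference of -1.79 had an adjusted p of 0.0219. The same limit of signal holds for Sult1e1, an oestrogen sulfotransferase (difference -1.06, adjusted p = 0.0303), with neither channel above background in transient transfectants, and for Hk2, hexokinase 2, with neither above background in stable transfectants. Man2a1, a Golgi mannosidase of glycan processing, was measured on all arrays, at 0.86 and 0.86 against -0.17 and -0.05 (difference 0.98, adjusted p = 0.0417).

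**Figure D2:**
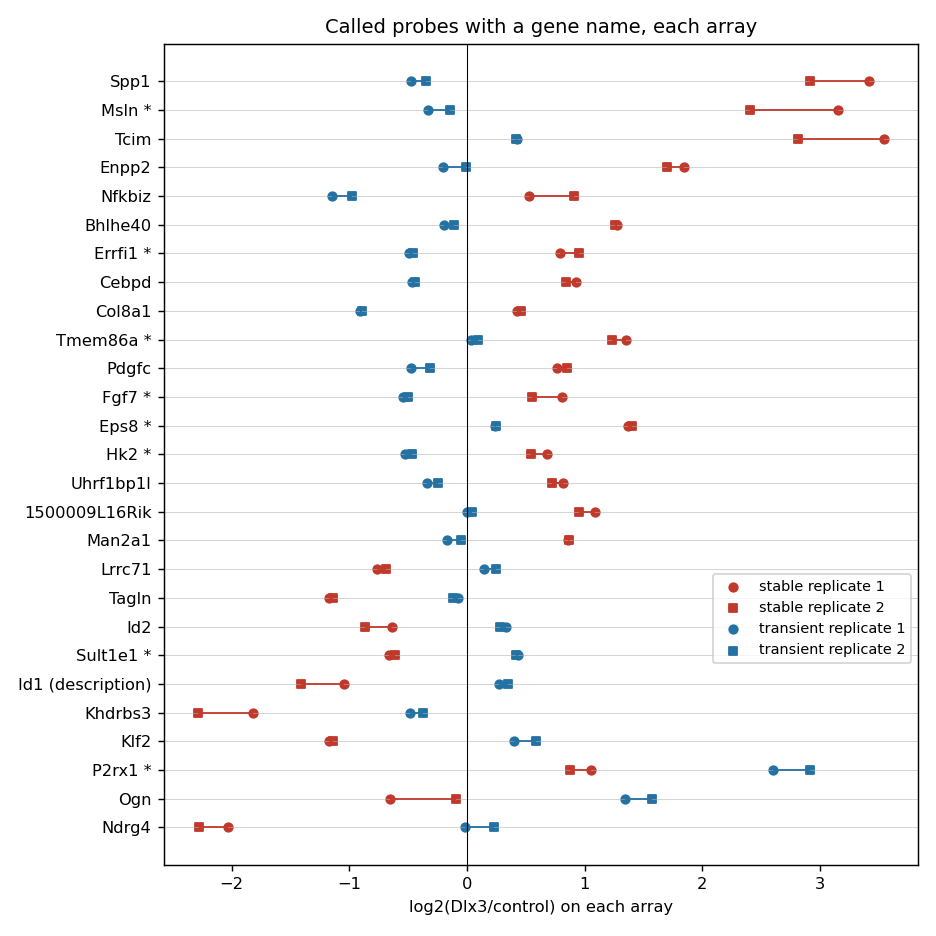
Log2 ratio (Dlx3 over control) on each array for the 26 called probes with a gene symbol and the probe described as Id1, ordered by the difference between groups. Lines join the 2 arrays of a group, and a star marks probes that some channel of some array did not measure above background. No stable point overlaps the transient points of its row, as the selection by this contrast requires.

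Of 28 tested inflammatory cytokines and NF-kB targets, 1 (Nfkbiz) was called higher, none lower, and 27 did not pass the test. Their median difference was 0.38, against 0.01 over all tested probes. Both stable arrays lay above both transient arrays for 16 of the 28, a pattern found in 28.5% of all tested probes, and below them for 5, against 26.7%. The median was 0.19 without the second stable array. The chemokine Cxcl5 read 1.06 and 2.64 in stable and -1.61 and -1.43 in transient transfectants, a difference of 3.37 that was not called (adjusted p = 0.0682). Cxcl1, a neutrophil chemokine like Cxcl5, read 0.55 and 1.54 against -1.31 and -1.27 (difference 2.34, adjusted p = 0.0595). Ccl2, a monocyte chemokine, read 0.31 and 1.40 against -1.11 and -0.94 (difference 1.88, adjusted p = 0.107). For all 3 the stable ratios were positive and the transient ratios negative, and the 2 stable arrays differed widely from each other. The stable Cxcl5 ratio rests on weak signal, at normalized log2 intensities of 6.69 and 7.05 in empty-plasmid cells. Stable less transient, the Dlx3 channels of Cxcl5 differed by -1.03 and its control channels by -4.40. These gaps were 1.56 and -0.77 for Cxcl1, and 0.04 and -1.84 for Ccl2. The part of the unlike controls was not tested. Ptgs2, the inducible cyclooxygenase, differed by 1.23 (adjusted p = 0.0947). Of 5 tested macrophage and blood markers, none was called and the median was 0.21.

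Of 16 tested genes of glycolysis, 1 (Hk2) was called higher, none lower, and 15 did not pass the test. The median difference was 0.52, made of a median ratio of 0.43 in stable and -0.05 in transient transfectants. Both stable arrays lay above both transient arrays for 11 of 16, against 28.5% of all tested probes, and below them for 0, against 26.7%. Hk2, which phosphorylates glucose at the start of the pathway, read 0.68 and 0.55 against -0.53 and -0.47 (difference 1.11, adjusted p = 0.0304), within the limit of signal given above. Aldoa (aldolase) read 0.83 and 0.59 against 0.05 and -0.05, Pfkl (liver phosphofructokinase) 1.07 and 0.42 against -0.06 and 0.00, and Gapdh 0.65 and 0.17 against -0.06 and -0.08. In each the stable ratios were higher, by differences of 0.71, 0.77 and 0.48 that were not called (adjusted p = 0.110, 0.170 and 0.218). Their Dlx3 channels differed by -0.14, -0.42 and -0.74, stable less transient, and their control channels by -0.85, -1.19 and -1.22. Both gaps were positive for Eno2 (enolase 2), at 1.53 and 0.69, and for Pfkm (muscle phosphofructokinase), at 0.848 and 0.465. Bnip3 and Egln3, both known targets of the hypoxia response, differed by 1.48 and 1.40 without a call (adjusted p = 0.110 and 0.118). The Egln3 ratio rests on weaker signal. In empty-plasmid cells its normalized log2 intensity was 7.17 and 6.73, against 11.02 and 11.05 for Bnip3. The glycolysis median was 0.25 without the first stable array and 0.73 without the second.

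Of 20 tested contractile and smooth muscle genes, 1 (Tagln) was called lower, none higher, and 19 did not pass the test. The median was -0.11, with 9 of 20 lower on both stable arrays than on both transient arrays (26.7% of all tested probes) and 2 higher (28.5%). Without the second stable array the median was -0.24. Acta2, smooth muscle actin, read -2.12 and -1.11 against 0.07 and -0.03, a wide spread between the stable arrays (difference -1.64, adjusted p = 0.114). Of 24 tested genes of BMP signalling and its antagonists, 1 (Id2) was called lower and 23 did not pass the test, with a median of -0.11, which was -0.07 without the first stable array. The called probe described as inhibitor of DNA binding 1 had no symbol and so could not enter that count. Of 16 tested neural genes, 1 (Ndrg4) was called lower and 15 did not pass the test, with a median of -0.22, which was -0.33 without the first stable array. Both stable arrays lay below both transient arrays for 9 of the 16 and above them for 1, against 26.7 and 28.5% of all tested probes.

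Among the other lists, Spp1 was the 1 called of 18 bone and cartilage genes (median 0.02), Col8a1 of 21 collagens and structural matrix genes (0.04), Cebpd of 12 adipocyte genes (0.02) and Msln of 30 epidermal and epithelial genes (-0.06). Klf2 was the 1 called of 25 immediate early genes (0.15) and of 15 pluripotency genes (0.00). No member was called among 7 DLX and MSX homeobox genes, the family of the transfected factor (median -0.18), or among 13 genes of LIF and IL6-family signalling (0.04). None was called among 40 cell cycle genes (0.04), 61 cytosolic ribosomal proteins (0.16), 30 proteasome subunits (-0.16) or 52 genes of oxidative phosphorylation (0.09). In the other 18 lists no member was called, and the medians lay between -0.17 and 0.10. The ribosomal median ranged from 0.02 without the first stable array to 0.28 without the second. The median of the homeobox list was -0.06 without the second transient array, that of the immediate early list 0.05 without the first stable array, and that of oxidative phosphorylation 0.02 without the first transient array. Of all 37 lists, 20 had a median that changed sign under at least 1 alternative, among them the bone, collagen, adipocyte, epidermal, pluripotency, LIF and macrophage lists.

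**Figure D3:**
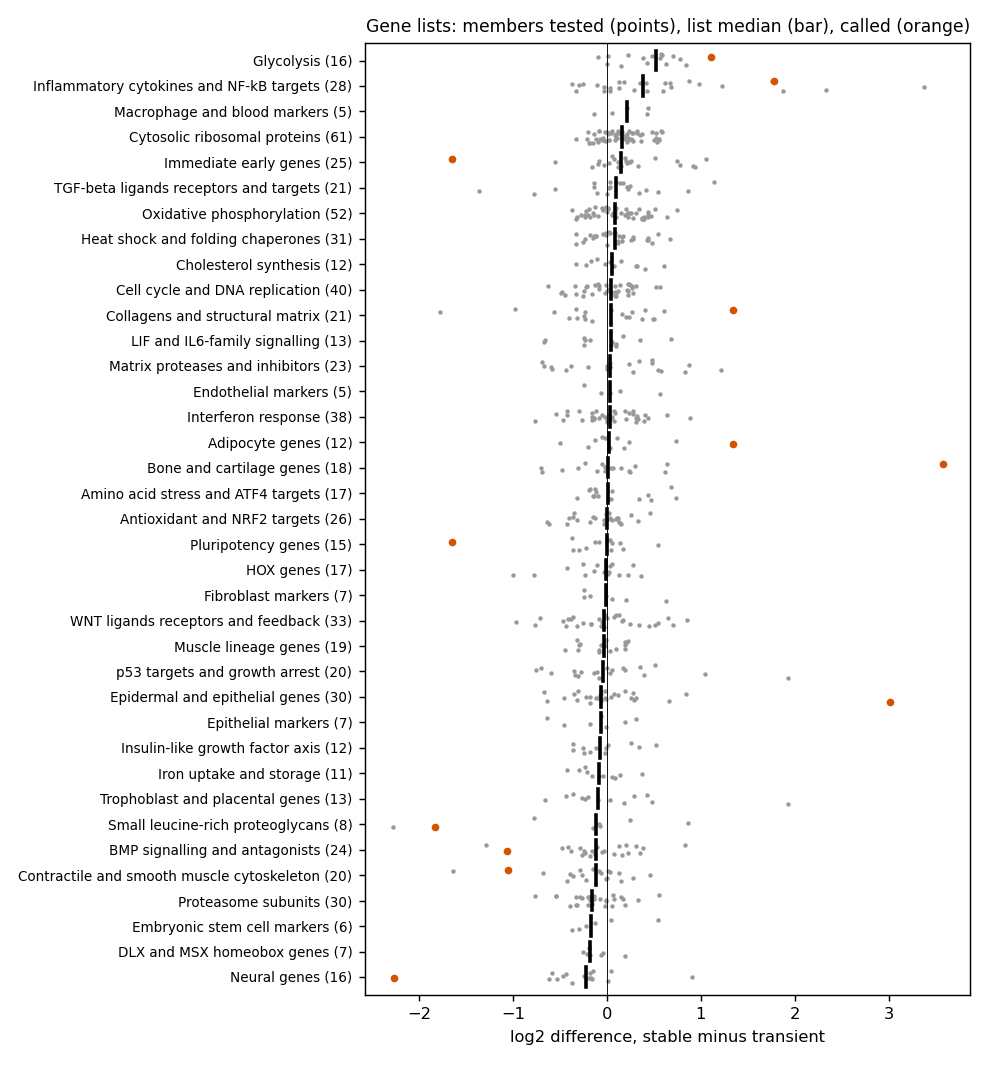
Log2 difference, stable minus transient, on the x axis for every tested member of each gene list (rows, with the number tested). Black bars are list medians, orange points are called members, and vertical scatter within a row has no meaning. Glycolysis (median 0.52) and the inflammatory list (0.38) lie furthest to the right, each with 1 called member.

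Each ratio has its own control, so the levels of both channels are given beside the difference. These normalized log2 intensities differ between slides for all genes (SD over probes of 0.67 for the gap between Dlx3 channels and 0.69 for that between control channels), and they were given no test. For Spp1, the Dlx3 channel read 13.02 and 11.67 on the stable and 11.20 and 10.29 on the transient slides. The control channel read 9.61 and 8.75 in the empty-plasmid cells and 11.68 and 10.64 in control MEFs. The stable Dlx3 cells were thus 1.60 above the transient Dlx3 cells, and the empty-plasmid cells were 1.98 below the control MEFs.

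Enpp2 read 10.35 and 10.04 in stable and 12.10 and 11.63 in transient Dlx3 cells, and 8.50 and 8.34 in empty-plasmid cells against 12.30 and 11.64 in control MEFs. Its level was lower in both kinds of stably transfected cells, and the higher stable ratio went with a control level that was lower by 3.55. Ndrg4 had Dlx3-channel levels of 9.16, 9.32, 9.55 and 9.11, in the order of the stable and then the transient arrays, while its control level was 11.19 and 11.59 in empty-plasmid cells and 9.57 and 8.88 in control MEFs. Its Dlx3 channels differed by -0.09 and its control channels by 2.17. Klf2 had the same layout in its means, with a gap of 0.07 between the Dlx3 channels and 1.71 between the control channels. Across slides its levels overlapped, at 9.69 and 11.09 in empty-plasmid cells against 8.52 and 9.95 in stable Dlx3 cells. Within each of these slides the empty-plasmid channel was the brighter. Tcim had the opposite layout, with gaps of 2.59 and -0.17.

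Over the 35 called probes, the gap between the Dlx3 channels was the larger one in 16 and that between the control channels in 19. The Dlx3-channel gap was the larger one in 48.3% of all tested probes. The part of the different controls in these differences was not tested.

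**Figure D4:**
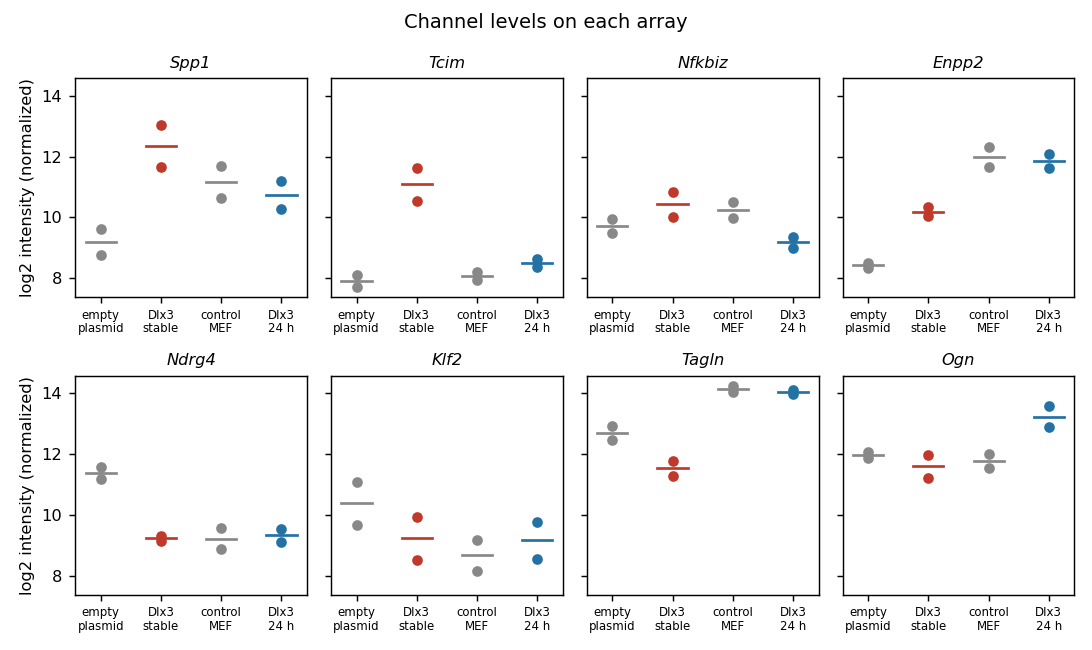
Normalized log2 intensity (y axis) of 8 called genes in the 4 kinds of cells (x axis), with 1 point per array and a bar at the mean of 2. Ndrg4 stands out in the empty-plasmid control, Tcim in the stable Dlx3 cells and Ogn in the transient Dlx3 cells. Enpp2 is lower in both stably transfected kinds of cells. The mean of Klf2 is highest in the empty-plasmid control, but across slides its points there overlap those of the Dlx3 cells. Within each stable slide the control is the brighter.

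A few genes had large ratios in both groups. There were 3 probes past 2-fold higher on all 4 arrays. Cthrc1, a secreted protein that limits collagen matrix, read 1.47 and 1.67 in stable and 1.28 and 1.12 in transient transfectants, a difference of 0.37 (95% confidence interval 0.06 to 0.67, adjusted p = 0.211) that became -0.19 with scaling between arrays. A probe described as matrix gamma-carboxyglutamate (gla) protein, an inhibitor of calcification, read 2.41 and 2.16 against 1.41 and 1.64, a difference of 0.76 (0.42 to 1.11, adjusted p = 0.113). A probe described as growth arrest specific 2 read 1.39 and 1.63 against 1.29 and 1.35, but in stable transfectants its control channel was above background on 0 of 2 arrays. These values show differences that missed the threshold, not that the responses were equal. All 4 arrays carry the dyes in 1 orientation, so a dye effect of a probe would not drop out of these ratios.

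Probes chosen in one group were then read in the other, whose arrays had no part in the choice. Of 31 probes past 2-fold higher on both stable arrays, both transient arrays were also positive for 24 and both negative for 5, against 36.3 and 36.4% of tested probes. Their median ratio was 1.39 in the stable and 0.40 in the transient group. Of 11 probes past 2-fold higher on both transient arrays, 5 were positive on both stable arrays and 2 negative on both, against 38 and 36.2% of tested probes, with medians of 1.32 and 0.73. Of 14 probes past 2-fold lower on both stable arrays, 9 were negative and 2 positive on both transient arrays, with medians of -1.30 and -0.29. Of 4 past 2-fold lower on both transient arrays, 2 were negative and 2 positive on both stable arrays, with medians of -1.32 and 0.41. Selection on size makes the median of the choosing group the larger one, so these medians are given as a description. A dye effect of a probe stays in the ratios of both groups, and its part in the like signs was not tested.

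None of the 3 genes named by the study was called in the difference. For Dlx3 itself, with the ratios given above, the groups overlapped (difference -0.21, 95% confidence interval -0.61 to 0.19, adjusted p = 0.505). Lifr, a receptor subunit for leukaemia inhibitory factor, read 0.38 and 0.74 against 0.84 and 0.74, and so overlapped too (difference -0.23, -0.59 to 0.13, adjusted p = 0.416). Not every channel of Lifr was above background, and its spot exceeded the 95th percentile of randomized spots on 0 of 4 arrays. Chrdl1, a secreted BMP antagonist, read -0.06 and 1.45 against 1.20 and 1.14, with the 2 stable arrays on either side of the transient ones (difference -0.48, -1.55 to 0.59, adjusted p = 0.569). That Chrdl1 spot also exceeded the percentile on 0 of 4 arrays. A second Chrdl1 probe, described as ventroptin-alpha, differed by 0.03 (adjusted p = 0.961). Scara5, a scavenger receptor, also had probes that disagreed, at -2.58 and -0.04 (adjusted p = 0.0708 and 0.857).

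A count by size with no test took probes past 2-fold in the difference with the groups' arrays apart. It held 89 probes (0.609%), 47 higher (0.322%) and 42 lower (0.287%), and 31 of them were called. Of 814 blank spots, 11 (1.35%) met the same rule, and so did 2 of 192 randomized spots (1.04%). At the unadjusted p that the calls reached, 1 blank spot and 0 randomized spots passed. That is 0.123% of all blanks and 0.787% of the 127 blanks past the filter on dim spots, against 0.24% of transcript probes. The rule by size therefore took in at least as large a share of spots without a target as of transcript probes.

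The calls rested on the spread between 2 arrays per group. With the first or the second transient array left out, limma called 3 and 7 probes, and 2 and 3 of the 35 kept their call. Spp1 and Ndrg4 were the 2 that kept it in both cases, and Enpp2 kept it without the second transient array. With the first or the second stable array left out, 1344 and 258 probes were called, all 35 among them, since the spread was then taken from the transient arrays alone (prior SD 0.09, against 0.15 from the stable arrays alone). With plain background subtraction, no probe was called, and 2493 had an unadjusted p under 0.05.

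**Figure D5:**
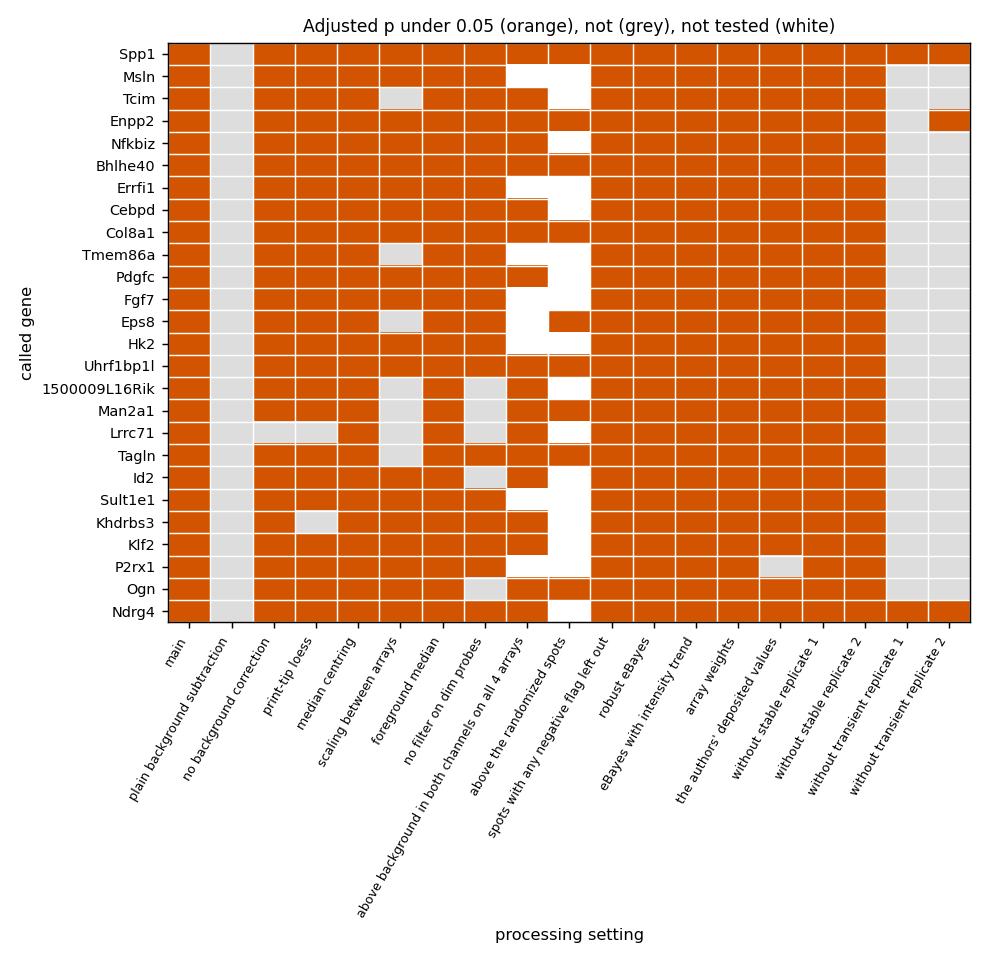
Calls for the 26 called genes with a symbol (rows) under the main setting and 18 alternatives (columns). Orange is an adjusted p under 0.05, grey is one at or above it, and white means that the probe was not tested under that setting. The grey columns are plain background subtraction and the fits without a transient array, where Spp1 and Ndrg4 stay orange in the last 2 columns.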

How the data were processed

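Each deposited scanner table holds, per the file headers, the intensity of 17664 spots and of the background around each in the Cy5 and Cy3 channels, read with GenePix Pro 5.0.0.49 and not normalized. Per the file headers, saturated pixels are given as a percent of each spot. The authors' deposited value table holds a signed score per spot with no stated normalization. It behaved as minus the ratio of control over Dlx3 (column medians -1.001, -1.007, -1.002 and -1.002), its centring and scale stay unknown, and it served as an alternative only.

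With limma 3.58.1 in R 4.3.3, normexp background correction (offset 50) and global loess with control spots at weight 0 gave log2 ratios of Cy5 over Cy3. Spots marked bad were left out and saturated ones kept. The filter on dim probes asked for a median foreground over background by 2 background SDs, in 1 channel or the other, on 2 of the 4 arrays or more. All arrays carry the dyes in 1 orientation, so only a dye effect equal in the groups drops out of the difference. One mean per group was fitted (lmFit, eBayes with 2 residual and 4.2 prior degrees of freedom), and two-sided p-values of the difference were Benjamini-Hochberg adjusted over 14610 probes. Channel levels came from loess and Aquantile. P-values measure the spread between these arrays only, and the number of arrays limits the precision. The fit was also run on simulated data in which all 4 arrays of a probe shared 1 spread. That run checked the code and cannot show how the calls hold where the spread differs between the groups.

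RefSeq accessions named 6678 probes and clone names 5758 more through a RefSeq gene table (GRCm38.p6), and 4027 stayed unnamed. For a gene with several probes, the brightest stood for it in the lists. Named genes are the study's title genes, up to 12 fully measured called genes per direction, genes with opposite signs, genes of like sign, called probes not fully measured, and up to 4 called members per list. The 37 lists and the members were chosen with earlier results of these data known, and genes outside the rule were chosen after their values were seen. The alternatives changed background correction, normalization, filters, eBayes settings, values and arrays.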

Additional observations from a re-analysis of the deposited data

Results flagged for a closer look

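The difference between the groups' responses was itself tested, and 35 probes were called. The higher differences (log2, stable minus transient) were 3.58 for Spp1, 3.02 for Msln, 2.76 for Tcim, 1.88 for Enpp2, 1.78 for Nfkbiz, 1.42 for Bhlhe40, 1.35 for Errfi1 and 1.34 for both Cebpd and Col8a1. They were 1.22 for Tmem86a, 1.20 for Pdgfc and Fgf7, 1.14 for Eps8, 1.11 for Hk2, 1.06 for Uhrf1bp1l, 1.00 for 1500009L16Rik and 0.98 for Man2a1. The other higher probes, without a symbol (a hypothetical basic protein, a cDNA clone and a RIKEN cDNA) differed by 1.24, 1.03 and 1.01.

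The lower differences were -2.26 for Ndrg4, -1.83 for Ogn, -1.79 for P2rx1, -1.65 for Klf2, -1.62 for Khdrbs3, -1.06 for Id2, Sult1e1 and Tagln and -0.93 for Lrrc71. Probes named by description only differed by -1.54 (inhibitor of DNA binding 1), -1.23 (phospholipase C epsilon 1), -1.23 (a tongue cDNA), -1.18 (Eph receptor A3), -1.13 (a relative of oxidation resistance 1) and -0.91 (lamin A). Of the 35, 23 had both channels above background on every array, as were 63.6% of tested probes, and 12 exceeded the 95th percentile of the randomized spots on at least 2 arrays, as did 30.6% of tested probes.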

How the results depend on the processing

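No paired analysis was possible because the labels give no replicate numbers that link an array of one group to an array of the other. The 35 calls, 22 of them with opposite signs, became 0 and 0 with plain background subtraction, 88 and 49 with median centring, 57 and 38 with scaling between arrays, 12 and 8 above the randomized spots, and 59 and 36 without spots that carried any negative flag. The calls became 54 on foreground medians and 59 with array weights. Without a stable array they numbered 258 and 1344 (152 and 650 with opposite signs), and without a transient array 3 and 7 (2 and 3). Scaling gave 25 higher and 32 lower calls, so that 43.9% were higher, against 57.1%. Of the 35, 24 kept their call under scaling and 35 under median centring.

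The 11 called members of the gene lists, counted once each, became 0 with plain subtraction, 23 with median centring, 19 with scaling, 17 on foreground medians, 4 above the randomized spots and 19 with array weights. They ranged from 2 to 126 with an array left out. The 89 probes past 2-fold became 189 with plain subtraction, 57 with both channels above background on all arrays, 36 above the randomized spots, 155 with the authors' deposited values and from 100 to 155 with an array left out.

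Among the 81 uncalled genes examined under the alternatives, the difference changed sign in 7 cases: Dlx3 to 0.0023 without the second transient array (-0.42 without the first), Chrdl1 to 0.28 without the first stable array (-1.23 without the second), Gpx1 to 0.33 without the first transient array (-1.60 without the second), Cthrc1 to -0.19 with scaling, and the brighter Scara5 probe to 0.0077 with print-tip loess, 0.011 on foreground medians and 0.032 without the second stable array (-0.12 without the first). None of the 35 called probes changed sign under the 16 to 18 alternatives in which it was tested. Some uncalled genes gained a call under alternatives that kept all arrays. Cxcl1 did so in 7 of 14, Dcn and Axin2 each in 6 of 13, and Cxcl5 and Aspn each in 4 of 14. Where no array was left out, the cause of these changes was not tested. The second stable array had brighter randomized spots (95th percentile 3190 and 5120) than the others (1040 to 1840), which limits what low signals there can show.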

Other observations

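Other uncalled genes, chosen after their values were seen or by the rule for lists with no call, had differences past 2-fold. Cdkn1c, an inhibitor of the cell cycle, read 1.997 and 2.92 in stable and 0.51 and 0.55 in transient transfectants (difference 1.93, adjusted p = 0.0794). All 4 ratios were positive, and the stable ones were the higher. Gas1, a growth arrest gene of the cell surface, read 1.16 and 1.73 against 0.42 and 0.37 (difference 1.05, adjusted p = 0.113). Mmp2, a matrix metalloproteinase, differed by 1.22 with stable arrays at 0.60 and 2.20 (adjusted p = 0.237), and Thbs1, a matrix glycoprotein known as a target of TGF-beta, by -1.36 with stable arrays at -1.61 and -0.43 (adjusted p = 0.165).

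Axin2, a feedback gene of Wnt signalling, read 0.72 and 0.68 in stable and -0.09 and -0.20 in transient transfectants (difference 0.85, adjusted p = 0.0595). Sfrp1, a secreted Wnt antagonist, read -0.19 and 0.31 against 1.12 and 0.93 (difference -0.97, adjusted p = 0.114, and -0.67 for a second Sfrp1 probe, adjusted p = 0.248). Neither gene's groups overlapped, and neither was called.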
